A study of Mus musculus with 32 samples.

Results

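The 10 genes described here are switched on in neurons by synaptic activity. They are 4 zinc finger transcription factors of the EGR family (Egr1, Egr2, Egr3 and Egr4), 2 orphan nuclear receptors of the NR4A family (Nr4a1 and Nr4a3), the neuron-specific transcription factor Npas4, and 3 genes of synaptic proteins (Arc, Homer1 and Nptx2). They were taken by symbol, with every probe set that the platform's probe table assigns to that symbol alone. The values given for a gene are those of its probe set with the highest mean over all arrays, and its other probe sets are described separately. The 10 genes were chosen with earlier results of these data known. They made up 10 of 18193 genes and 20 of 34945 single-gene probe sets, and all 10 were measured and tested, with no filter on low values.

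Expression was measured by Affymetrix array in the striatum, the forebrain region that degenerates first in Huntington's disease. The mice were males of 12 weeks on a CBA X C57Bl/6 background, either wild type or R6/2. R6/2 mice carry a transgene with the first exon of human huntingtin and an expanded CAG repeat, under the human promoter, so that the endogenous mouse gene is left in place. Each mouse received by oral gavage either NVP-HSP990 (HSP990), an inhibitor of the chaperone HSP90, at 12 mg/kg, or the formulation without compound (vehicle), and was studied 4 h later, so a later or repeated response was not sampled. Wild-type mice gave 7 arrays on vehicle and 10 on HSP990, and R6/2 mice gave 7 on vehicle and 8 on HSP990. The labels tie no array to an animal, so p-values measure the spread between arrays, which were treated as separate mice.

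In neurons, calcium entry through synaptic receptors and channels activates kinases that phosphorylate transcription factors already bound to these promoters, chiefly CREB at cyclic AMP response elements and SRF with its cofactors at CArG boxes. Transcription then rises within minutes and needs no new protein, and the products are either further transcription factors or proteins that act at the synapse. In the striatum these genes follow cortical and dopamine input to the medium spiny neurons, and several of them are known to be low in Huntington's disease models.

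RefSeq promoters (GRCm38.p6) were searched for 6 of the 10 genes and 11 of their start sites: Egr2, Egr4, Nr4a1, Nr4a3, Npas4 and Homer1. Promoters of Egr1, Egr3, Arc and Nptx2 were not searched. Of these promoters, 5 are shown because the genes they belong to differed in their calls below. Npas4 and Homer1 were called lower in R6/2 mice under both treatments, and Egr4 on vehicle. Nr4a1 and Nr4a3 passed no test between the genotypes on the same treatment. Each run is the 250 bases before the start site, 5′ to 3′ on the gene's strand, and capitals mark matches to the motifs named after the sequences.
Npas4, chr19:4989972-4990221, minus strand: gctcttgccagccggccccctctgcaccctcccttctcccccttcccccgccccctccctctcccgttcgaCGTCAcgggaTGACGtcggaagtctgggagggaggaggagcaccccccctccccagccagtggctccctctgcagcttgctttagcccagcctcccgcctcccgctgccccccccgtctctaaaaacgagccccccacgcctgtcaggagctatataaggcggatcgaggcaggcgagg
Homer1, chr13:93303507-93303756, plus strand: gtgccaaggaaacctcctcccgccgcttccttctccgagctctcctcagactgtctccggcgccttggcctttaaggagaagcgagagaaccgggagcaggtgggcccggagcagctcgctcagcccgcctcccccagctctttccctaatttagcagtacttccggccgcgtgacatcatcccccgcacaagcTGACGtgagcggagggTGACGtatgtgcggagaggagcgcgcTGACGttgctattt
Egr4, chr6:85513590-85513839, minus strand: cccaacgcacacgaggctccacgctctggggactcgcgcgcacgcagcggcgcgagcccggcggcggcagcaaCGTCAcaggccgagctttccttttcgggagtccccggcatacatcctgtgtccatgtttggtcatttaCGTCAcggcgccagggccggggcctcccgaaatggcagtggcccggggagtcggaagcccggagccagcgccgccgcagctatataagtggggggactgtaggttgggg
Nr4a1, chr15:101266596-101266845, plus strand: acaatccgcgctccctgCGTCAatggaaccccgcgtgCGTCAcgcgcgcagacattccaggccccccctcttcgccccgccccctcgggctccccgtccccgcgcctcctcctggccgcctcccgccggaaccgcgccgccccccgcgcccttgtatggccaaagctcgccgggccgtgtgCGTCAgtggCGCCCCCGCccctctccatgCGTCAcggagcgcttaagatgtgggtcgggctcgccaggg
Nr4a3, chr4:48045055-48045304, plus strand: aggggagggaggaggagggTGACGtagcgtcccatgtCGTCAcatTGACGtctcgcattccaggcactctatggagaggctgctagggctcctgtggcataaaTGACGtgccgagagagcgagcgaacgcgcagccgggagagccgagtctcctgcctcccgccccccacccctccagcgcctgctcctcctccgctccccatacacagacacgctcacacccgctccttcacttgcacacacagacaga

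Both strands were searched for the half-site of the cyclic AMP response element (TGACG), for the full element (TGACGTCA, which contains the half-site), the CArG box of SRF, the EGR site (GCGTGGGCG or GCGGGGGCG), the NR4A site (AAAGGTCA), the MEF2 site and the inner part of a heat shock element (GAANNTTC). The half-site was matched 2 times in Npas4, 3 times in Homer1, 2 times in Egr4, 4 times in Nr4a1 and 4 times in Nr4a3. Of 32851 start sites in the same table, 17.8% held at least 1 half-site, 3.90% at least 2 and 0.688% at least 3. The full element, matched at 1.55% of start sites, was in none of the 11 windows. Nr4a1 also held 1 EGR site, a motif at 3.06% of start sites. For Egr2, 3 of 5 listed start sites, which largely overlap, had 2 half-sites and a CArG box each, and 1 more had the CArG box alone, against 1.47% of all start sites with a CArG box. The second Homer1 start site had no half-site and a single GAANNTTC match, present at 6.69% of start sites. The NR4A site (1.34% of start sites) and the MEF2 site (2.92%) were matched in none of the 11. These matches describe letters and were not tested as binding sites. Half-sites were matched in genes called lower in R6/2 and also in Nr4a1 and Nr4a3, which were not called between the genotypes on the same treatment.

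The deposited log2 values of the arrays had medians between 5.73 and 5.78. The heat shock gene Hspa1a, the check of the dosing, rose on HSP990 by 5.31 ± 0.19 (SE) log2 units in wild type and 3.70 ± 0.20 in R6/2. Medium spiny neuron markers averaged 11.3 to 11.8 log2 units on wild-type vehicle arrays and 9.28 to 10.8 on R6/2 vehicle arrays, and each of the 10 measured markers (of 12 listed) had a mean over all arrays above the level of the median probe set, so the tissue carried the label's defining transcripts. Of 11 measured cortical markers, 4 (Neurod6, Tbr1, Emx1 and Neurod1) had a mean over all arrays that did not exceed that level, although the R6/2 vehicle means of Neurod6 (6.22) and Neurod1 (5.94) did. One library stood apart for the genes described here: R6/2 vehicle replicate 7 was the highest of its group for 9 of the 10, by a mean of 2.09 SD, and it also had the highest Hspa1a of its group (7.82, against 6.01 to 6.57 in the others). Wild-type vehicle replicate 4 was the lowest of its group for 6 of the 10 and had the highest Fkbp5 of its group (10.5, against 8.78 to 9.34). For Egr1, Egr2, Npas4, Nr4a1, Nr4a3 and Arc, the genotype difference on vehicle without these arrays is given beside it. With each array left out in turn, that of Egr3 ran from -0.99 to -0.76 and that of Egr4 from -0.56 to -0.37. Homer1 ran from -0.77 to -0.64 and Nptx2 from -1.53 to -1.23.

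R6/2 mice had less RNA of most of the 10 genes than wild-type mice on either treatment. A gene was called when its adjusted p (limma's moderated test, Benjamini-Hochberg over 18193 genes) was under 0.05. On vehicle 7 of 10 were called lower and none higher, where 9.60% of all genes were called lower. Under HSP990 7 of 10 were again called lower and none higher, where 11.0% of all genes were. The median log2 change of the 10 was -0.64 on vehicle and -1.13 under HSP990, beside medians over all genes of -0.01 and 0.04, and all 10 differences were below 0 in each comparison. The genes called under both treatments were Egr1, Egr2, Egr3, Npas4, Homer1 and Nptx2, with Egr4 called on vehicle alone and Arc under HSP990 alone. The 2 genotype comparisons share no arrays. In whole striatum, fewer neurons of a type and less RNA per neuron cannot be told apart, and 9 of 10 measured medium spiny neuron markers were also called lower on vehicle (median -1.48) and 9 under HSP990 (median -1.73). Their part in the differences was not tested.

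**Figure D1:**
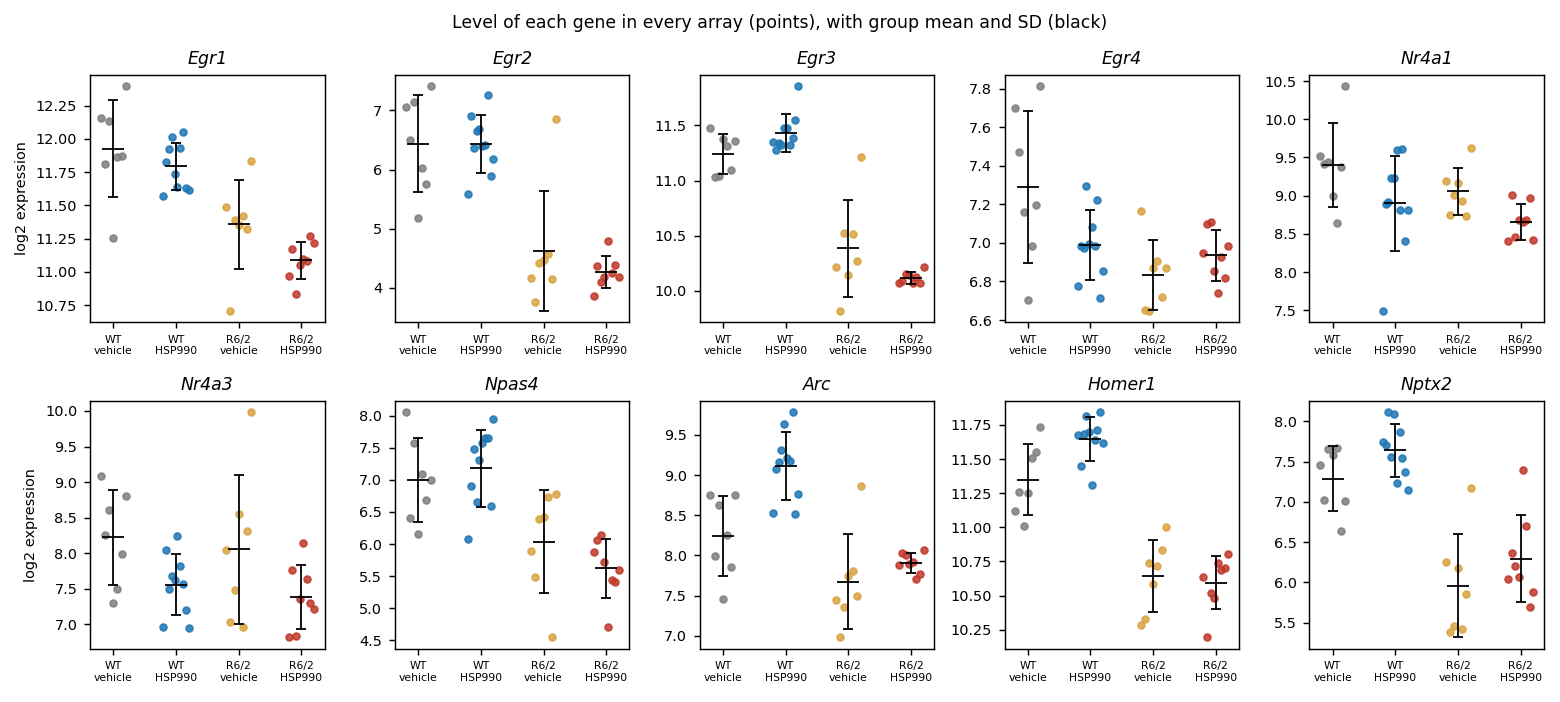
Log2 expression of each of the 10 genes (vertical axes, 1 panel a gene, each with its own range) on every array (points) in the 4 groups (horizontal axis), with the group mean and SD in black. Under HSP990 the R6/2 points lie below every wild-type point for Egr1, Egr2, Egr3, Arc and Homer1, and in the R6/2 vehicle group 1 array lies far above the others for Egr2 (6.85) and Egr3 (11.22).

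Among the EGR factors, which bind GC-rich sites in the promoters of synaptic and other neuronal genes, Egr2 showed the lowest values in R6/2. Wild-type vehicle arrays ranged from 5.18 to 7.41 log2 units (median 6.49) and R6/2 vehicle arrays from 3.76 to 6.85 (median 4.43). On HSP990 the wild-type range was 5.58 to 7.26 (median 6.41) and the R6/2 range 3.86 to 4.80 (median 4.22). On vehicle 6 of 7 R6/2 arrays were below every wild-type array and replicate 7 was within the wild-type range, while under HSP990 all 8 R6/2 arrays were below all 10 wild-type arrays. Egr2 fell by 1.81 ± 0.34 (SE) log2 units on vehicle, a 3.51-fold lower level (limma adjusted p = 0.00019), and its difference under HSP990 was -2.16 ± 0.30, or 4.48-fold lower (adjusted p = 9.62e-07). Without R6/2 vehicle replicate 7 and wild-type vehicle replicate 4 the difference on vehicle was -2.39. Every R6/2 value of Egr2 except that of vehicle replicate 7 was below the median of all probe sets (5.76), where an array resolves falls less well. The lowest wild-type values on vehicle (5.18) and on HSP990 (5.58) were below it too.

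Egr3, a factor needed for the development of muscle spindles and induced by activity in neurons, separated the genotypes with the smallest p of the 10. Its values were 11.03 to 11.47 on wild-type vehicle arrays (median 11.32) and 9.82 to 11.22 on R6/2 vehicle arrays (median 10.27). With HSP990 they were 11.27 to 11.86 in wild type (median 11.37) and 10.07 to 10.21 in R6/2 (median 10.11). The 8 R6/2 HSP990 arrays fell within a narrow band, and no R6/2 array on HSP990 reached a wild-type one, while on vehicle replicate 7 alone overlapped the wild-type group. The differences were -0.86 ± 0.13 log2 units on vehicle (adjusted p = 5.89e-06) and -1.32 ± 0.11 under HSP990 (adjusted p = 1.03e-10), or 1.81-fold and 2.49-fold lower.

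Egr1, the founding member of the family and a common marker of neuronal activation, was lower by less. Wild-type arrays were at 11.26 to 12.40 on vehicle (median 11.87) and at 11.57 to 12.05 on HSP990 (median 11.78). R6/2 arrays were at 10.71 to 11.83 on vehicle (median 11.39) and at 10.84 to 11.27 on HSP990 (median 11.09). The vehicle groups overlapped, with 1 of 7 R6/2 arrays under the whole wild-type range, and the HSP990 groups did not. The differences of Egr1 were -0.57 ± 0.13 on vehicle (adjusted p = 0.0021) and -0.71 ± 0.12 under HSP990 (adjusted p = 1.7e-05). Without R6/2 vehicle replicate 7 and wild-type vehicle replicate 4 the difference on vehicle was -0.76.

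Egr4, the remaining member of the family, which is made mainly in the nervous system, was called between the genotypes on vehicle and not under HSP990. On vehicle it ranged from 6.70 to 7.81 in wild type (median 7.20) and from 6.65 to 7.16 in R6/2 (median 6.87), and the difference of -0.46 ± 0.12 was called (adjusted p = 0.00635). With HSP990 the genotypes were at 6.72 to 7.30 (median 6.99) and 6.74 to 7.11 (median 6.94), which overlapped almost fully, and the difference of -0.05 had a 95% interval from -0.27 to 0.17. The call on vehicle was lost when the fit held the vehicle groups alone (adjusted p = 0.0522). The change of the genotype difference with treatment, 0.40 ± 0.16, did not pass its own test (adjusted p = 0.279).

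Npas4, a calcium-dependent factor that regulates inhibitory synapses, was lower in R6/2 but scattered widely. It ranged from 6.16 to 8.06 on wild-type vehicle arrays (median 6.99) and from 4.55 to 6.77 on R6/2 vehicle arrays (median 6.39). Under HSP990 it was 6.07 to 7.95 in wild type (median 7.40) and 4.71 to 6.15 in R6/2 (median 5.65). The groups overlapped on both treatments, by a single wild-type array (replicate 1, at 6.07) in the HSP990 groups, where 7 of 8 R6/2 arrays lay under the wild-type range. The difference of -0.96 ± 0.32 on vehicle was called (adjusted p = 0.0277), as was that of -1.56 ± 0.28 under HSP990 (adjusted p = 4.44e-05). The vehicle call was lost without R6/2 vehicle replicate 2 (adjusted p = 0.0651) or replicate 6 (0.0934), without wild-type vehicle replicate 1 (0.0815) or replicate 3 (0.0625), and with the vehicle groups alone in the fit (0.074), while without R6/2 vehicle replicate 7 and wild-type vehicle replicate 4 together it was -1.22 (adjusted p = 0.00654).

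The NR4A receptors, which act without a known hormone and are induced by the same signals as the EGR factors, passed no test between the genotypes on either treatment. Nr4a1 was at 8.64 to 10.44 on wild-type vehicle arrays (median 9.42) and 8.73 to 9.62 on R6/2 vehicle arrays (median 9.01), a difference of -0.35 ± 0.24 (adjusted p = 0.333). That difference was -0.17 without wild-type vehicle replicate 7 and -0.51 without R6/2 vehicle replicate 7 and wild-type vehicle replicate 4 together (adjusted p = 0.154). With HSP990 it was at 7.49 to 9.61 (median 8.90) and 8.40 to 9.01 (median 8.67), a difference of -0.24 ± 0.21 (adjusted p = 0.432), or -0.40 without wild-type HSP990 replicate 1, whose 7.49 was the lowest value. Nr4a3 differed by -0.17 on each treatment, with 95% intervals from -0.85 to 0.51 on vehicle and from -0.78 to 0.43 under HSP990. On vehicle that value moved with single arrays: it was -0.49 without R6/2 vehicle replicate 7 (adjusted p = 0.235), -0.32 without wild-type vehicle replicate 4, 0.00 without R6/2 vehicle replicate 2, and -0.64 without replicates 7 and 4 of these groups together (adjusted p = 0.1). Its R6/2 vehicle arrays ran from 6.96 to 9.98 (median 8.05), a wider range than the 7.30 to 9.08 of wild-type vehicle arrays (median 8.26). The Nr4a3 intervals include a fall of the size seen for Egr1, as does that of Nr4a1 on vehicle (-0.83 to 0.14). Under HSP990 the Nr4a1 interval, -0.67 to 0.19, stops just short of the Egr1 difference of -0.71. The data thus do not show the NR4A genes to be at the same level in both genotypes.

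Among the genes of synaptic proteins, Homer1, whose long products link metabotropic glutamate receptors to the postsynaptic density and whose short, activity-induced product uncouples them, was the gene whose vehicle groups did not overlap. Groups without overlap were found on vehicle for 1 of the 10 genes and 3.90% of all genes, and under HSP990 for 5 of 10 (Egr1, Egr2, Egr3, Arc and Homer1) and 9.40% of all genes. Homer1 was at 11.01 to 11.74 in wild type on vehicle (median 11.26) and 10.28 to 11.01 in R6/2 (median 10.71). On HSP990 it was at 11.31 to 11.84 (median 11.68) and 10.19 to 10.80 (median 10.66). The highest R6/2 vehicle array (11.005) lay just under the lowest wild-type one (11.010), and that highest array was replicate 7. The Homer1 differences were -0.71 ± 0.11 on vehicle (adjusted p = 2.05e-05) and -1.05 ± 0.10 under HSP990 (adjusted p = 1.03e-09).

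Nptx2, a secreted pentraxin that gathers AMPA receptors at excitatory synapses, was lower in R6/2 by about the same amount on both treatments. Its range was 6.64 to 7.66 on wild-type vehicle arrays (median 7.45) and 5.39 to 7.17 on R6/2 vehicle arrays (median 5.86). On HSP990 it was 7.15 to 8.11 in wild type (median 7.63) and 5.70 to 7.39 in R6/2 (median 6.13). The differences were -1.33 ± 0.24 (adjusted p = 0.00013) and -1.34 ± 0.21 (adjusted p = 8.2e-06), or 2.51-fold and 2.54-fold lower. One R6/2 array overlapped the wild-type range in each pair of groups, replicate 7 on vehicle and replicate 5 on HSP990, and replicate 5 was also the array with the largest 3' to 5' difference of the Gapdh control probe sets (5.01 log2 units, against at most 2.23 elsewhere). With group means removed, Nptx2 had r = 0.72 with the mean of the cortical markers over 32 arrays, r = -0.59 with the oligodendrocyte markers and r = 0.53 with the arrays' 3' bias. Cortical marker means ranged from 6.61 to 8.30 on wild-type vehicle, 6.39 to 8.68 on R6/2 vehicle, 6.50 to 8.10 on wild-type HSP990 and 6.44 to 8.35 on R6/2 HSP990 arrays, and 2 of 11 cortical markers were called lower in R6/2 in each comparison. Their part in the Nptx2 difference was not tested.

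Arc, which drives removal of AMPA receptors from the synapse and whose RNA travels into dendrites, was called between the genotypes under HSP990 and not on vehicle. It was at 7.46 to 8.75 on wild-type vehicle arrays (median 8.26) and 6.98 to 8.86 on R6/2 vehicle arrays (median 7.50). On HSP990 it was at 8.52 to 9.78 in wild type (median 9.17) and 7.71 to 8.06 in R6/2 (median 7.91). Under HSP990 every R6/2 array was below every wild-type array, and on vehicle the ranges overlapped, with R6/2 replicate 7 above all wild-type arrays. The difference was -0.57 ± 0.22 on vehicle (adjusted p = 0.0607) and -1.21 ± 0.19 under HSP990 (adjusted p = 9.6e-06, 2.31-fold lower). On vehicle it became a call without R6/2 vehicle replicate 7 (-0.77, adjusted p = 0.00342), without wild-type vehicle replicate 4 (-0.70, 0.0182) or replicate 6 (-0.64, 0.0478), and it was -0.90 (0.000458) without replicates 7 and 4 of these 2 groups together. The change of the genotype difference of Arc with treatment, -0.63 ± 0.29, did not pass its own test (adjusted p = 0.356).

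**Figure D2:**
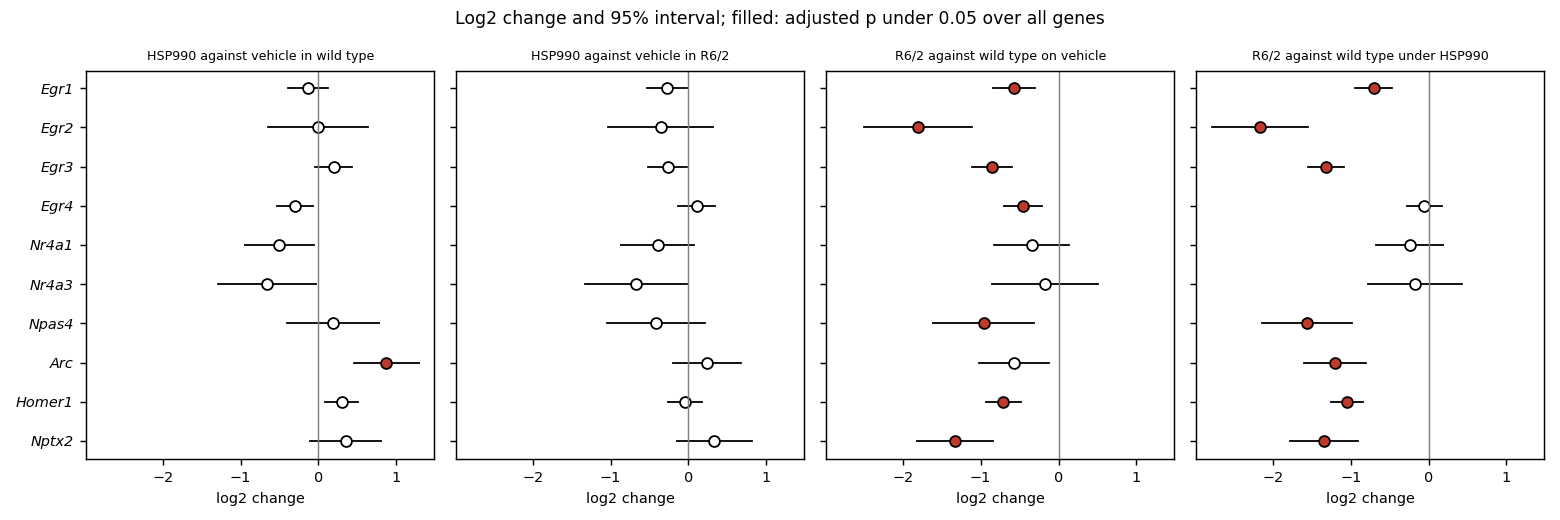
Log2 change of each gene with its 95% interval (horizontal axes) in the 4 comparisons, 1 panel each, with filled points where the adjusted p over all genes is under 0.05. In both genotype panels 7 of 10 points are filled and all lie left of 0, while in the treatment panels Arc in wild type (0.87) is the filled point.

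HSP990 changed few of these genes at 4 h. In wild-type mice 1 of 10, Arc, was called higher and none lower, where 2.24% of all genes were called higher and 5.80% called in either direction. Every one of the 10 wild-type HSP990 arrays was above the vehicle mean of Arc and 8 were above the whole vehicle range. The rise was 0.87 ± 0.20 log2 units, or 1.83-fold (adjusted p = 0.00613). In R6/2 mice none of the 10 was called, where 3.09% of all genes were called, and Arc differed by 0.24 (95% interval -0.20 to 0.67). All 8 R6/2 HSP990 arrays were above the vehicle mean of Arc, within the range that replicate 7 gave the vehicle group, and without that array the difference was 0.44 (adjusted p = 0.305). At an unadjusted p under 0.05, 5 of the 10 genes passed in wild type, where 18.5% of all genes did, and 3 in R6/2, where 15.8% did.

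The 10 genes moved in both directions under HSP990 in wild type, with a median of 0.09 beside -0.03 over all genes. Homer1 was 0.30 ± 0.10 higher (adjusted p = 0.0889), with 9 of 10 HSP990 arrays above the vehicle mean. That difference was called when the 6 Homer1 probe sets were averaged (0.46, adjusted p = 0.00106), with array weights (0.0135) and without wild-type vehicle replicate 7 (0.36, 0.0329). Nr4a1 and Nr4a3 had negative values, -0.50 ± 0.22 (adjusted p = 0.198) and -0.67 ± 0.31 (adjusted p = 0.235), and Egr4 -0.30 ± 0.11 (adjusted p = 0.118). Egr4 was called without wild-type vehicle replicate 4 (-0.40, adjusted p = 0.0171) and with array weights (0.0203), and Nr4a3 with array weights (0.0444) and without both arrays that stood apart (-0.82, 0.0435). Egr1, Egr2, Egr3, Npas4 and Nptx2 had values between -0.13 and 0.35 that did not pass. For comparison, Jun, an immediate early gene outside the list, rose by 1.40 ± 0.21 in wild type (adjusted p = 3.84e-05) and 1.10 ± 0.22 in R6/2 (adjusted p = 0.00276), the latter not called with the mean of its probe sets (0.57, adjusted p = 0.234).

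In R6/2 mice the median under HSP990 was -0.27 beside 0.02 over all genes, and 7 of 10 values were negative, from -0.67 (Nr4a3, adjusted p = 0.307) to 0.33 (Nptx2, adjusted p = 0.546). All 8 HSP990 arrays were below the vehicle mean for Egr1, Egr3 and Nr4a1, means that include replicate 7. Without that array and wild-type vehicle replicate 4, Egr2 changed from -0.36 to 0.01, Nr4a3 from -0.67 to -0.35 Egr3 from -0.27 to -0.13, Arc from 0.24 to 0.44 and Nptx2 from 0.33 to 0.54, none of them called. Nptx2 in R6/2 was 0.18 without HSP990 replicate 5, and Npas4 (-0.42) was -0.66 without vehicle replicate 6. No interaction of genotype and treatment was called among the 10, where 0.247% of all genes were called, and 4 had an unadjusted p under 0.05, where 12.9% of all genes did. These were Egr3 (-0.46 ± 0.17, adjusted p = 0.225), Egr4, Homer1 (-0.34 ± 0.15, adjusted p = 0.328) and Arc (-0.63 ± 0.29, adjusted p = 0.356), so the call of Arc in wild type and its absence in R6/2 are not shown to differ. Without R6/2 vehicle replicate 7 and wild-type vehicle replicate 4 the interaction of Arc was -0.31 (adjusted p = 0.636).

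The order of the 4 groups followed genotype for Egr1, Egr2, Egr3, Npas4, Arc, Homer1 and Nptx2, with both wild-type means above both R6/2 means. For 6 of these the neighbours that differed were the wild-type group with the lower mean and the R6/2 group with the higher mean. For Egr1 and Egr2 these were wild type on HSP990 and R6/2 on vehicle (-0.44, adjusted p = 0.00661, and -1.81, adjusted p = 3.33e-05), a comparison in which 7 of 10 genes and 11.7% of all genes were called lower. For Egr3, Npas4 and Homer1 they were the vehicle groups, and for Nptx2 wild type on vehicle and R6/2 on HSP990 (-0.99, adjusted p = 0.00136). Arc was the exception, with the step between the wild-type groups, while R6/2 on HSP990 was not called against wild type on vehicle (-0.33, adjusted p = 0.265) unless R6/2 vehicle replicate 7 and wild-type vehicle replicate 4 were both left out (-0.46, 0.0405).

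For Egr4, Nr4a1 and Nr4a3 no neighbours in the order differed. Their ends did in part. For Egr4 the ends were the vehicle groups (-0.46, limma adjusted p = 0.00635). For Nr4a1 and Nr4a3 they were R6/2 on HSP990 and wild type on vehicle, at -0.74 ± 0.23 (adjusted p = 0.014) and -0.84 ± 0.32 (adjusted p = 0.0501). In the comparison of R6/2 on HSP990 with wild type on vehicle 8 of 10 genes were called lower, where 11.0% of all genes were. The Nr4a1 call was lost without wild-type vehicle replicate 7 (-0.57, adjusted p = 0.0514), and that of Egr4 in the same comparison (-0.35, adjusted p = 0.0223) without wild-type vehicle replicate 1 (0.071), 2 (0.0509) or 7 (0.0788). Nr4a3 passed under quantile normalization (0.0431) and without R6/2 vehicle replicate 7 (0.0156), among other settings.

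The probe sets of a gene did not all give the same picture. Of 20 probe sets, 12 were called lower in R6/2 on vehicle and 15 under HSP990, where 7.68% and 11.9% of all single-gene probe sets were. With HSP990 in wild type 5 of 20 were called higher, where 2.66% of all were, and they belonged to Arc, Egr3 and Homer1. The largest difference was in Homer1 probe set 1436387_at. It ranged from 9.36 to 10.12 on wild-type vehicle arrays (median 9.89) and from 10.39 to 11.03 on wild-type HSP990 arrays (median 10.70). In R6/2 it ranged from 6.65 to 9.33 on vehicle (median 7.40) and from 6.79 to 8.60 on HSP990 (median 7.65). The 4 groups fell into 3 levels without overlap between wild type on vehicle, wild type on HSP990 and the R6/2 arrays. In R6/2 it was lower on vehicle (-2.16 ± 0.28, adjusted p = 1.07e-06) and under HSP990 (-3.13 ± 0.25, adjusted p = 3.53e-11), and it rose by 0.84 ± 0.26 with HSP990 in wild type (adjusted p = 0.0487). The probe set with the highest mean, used for Homer1 elsewhere here, had -0.71 and -1.05.

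A further Homer1 probe set, 1421768_a_at, had a mean of 8.29 on wild-type HSP990 arrays, 7.57 on wild-type vehicle, 6.87 on R6/2 vehicle and 6.57 on R6/2 HSP990 arrays. It rose by 0.72 ± 0.18 with HSP990 in wild type (adjusted p = 0.0141), and its interaction of -1.02 ± 0.26 was not called (adjusted p = 0.0876). Probe set 1439662_at rose by 0.44 ± 0.13 in wild type (adjusted p = 0.0392), and 1425710_a_at had a value of 0.40 ± 0.16 (adjusted p = 0.163). The dim 1425671_at, with a mean of 2.93, moved by 0.06. Which Homer1 transcripts each probe set reads was not analysed here.

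For Egr3, the brighter probe set fell on vehicle, while 1421486_at (mean 6.07) differed by -0.07 on vehicle (adjusted p = 0.565), fell by 0.41 under HSP990 (adjusted p = 7.49e-06) and rose by 0.24 with HSP990 in wild type (adjusted p = 0.0279). The brighter one had 0.19 in that last comparison (adjusted p = 0.394). The probe sets of Egr2 agreed, at -1.81 and -1.71 on vehicle and -2.16 and -2.01 under HSP990. Nptx2 1449960_at (mean 4.00) differed by -0.30 and -0.29, and the dimmer probe sets of Nr4a3 (means 5.83 and 3.10) stayed within 0.1 of no change in each comparison between the genotypes or treatments. Averaging the probe sets of a gene moved Egr3 to -0.46 and -0.87 in the genotype comparisons and Nptx2 to -0.82 in each, all still called.

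**Figure D3:**
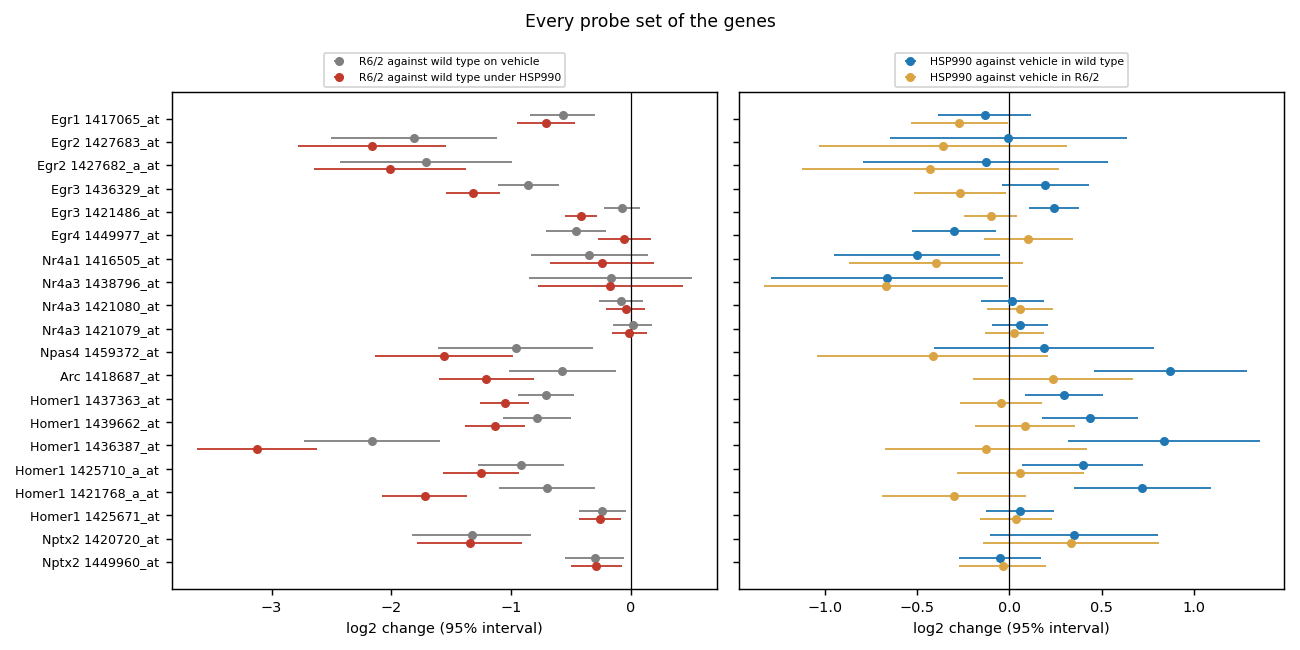
Log2 change with its 95% interval (horizontal axes) for each of the 20 probe sets (rows, by gene), between genotypes on the left (grey on vehicle, red under HSP990) and between treatments on the right (blue in wild type, yellow in R6/2). Homer1 probe set 1436387_at lies farthest to the left, at -2.16 on vehicle and -3.13 under HSP990, and 5 probe sets of Arc, Egr3 and Homer1 are called higher with HSP990 in wild type.

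Within groups the 10 genes tended to move together from array to array. With group means removed, Pearson's r over the 32 arrays was above 0 for 42 of 45 pairs, with a median of 0.43 and a range from -0.20 to 0.89. The pairs share arrays, and therefore RNA quality and dissection, so this is a description. The strongest pair was Egr2 with Arc (0.89), and the next were Egr1 with Egr2 (0.80), Egr2 with Nr4a3 (0.79) and Egr1 with Arc (0.78). Among the transcription factors Homer1 had r from -0.20 (Npas4) to 0.42 (Egr3), with 0.35 to Egr1, 0.24 to Egr2, 0.08 to Nr4a3, 0.02 to Nr4a1 and -0.05 to Egr4. With R6/2 vehicle replicate 7 left out of r, the median r was 0.30, with 15 pairs over 0.5 against 16 with it. The group mean removed still included that array, so the other R6/2 vehicle arrays kept a shared offset that can raise r. Egr2 with Arc had r of 0.94 among wild-type vehicle, 0.88 among wild-type HSP990, 0.96 among R6/2 vehicle and -0.05 among R6/2 HSP990 arrays.

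Values of R6/2 vehicle arrays ran from replicate 7, with a mean of 2.09 SD above its group and above the group mean for all 10 genes, to replicate 2, with a mean of -1.42 SD and below it for all 10. In wild-type vehicle mice replicates 7 and 1 were the highest for 5 and 4 genes, and replicate 4 the lowest for 6. Fkbp5, a glucocorticoid-induced gene, had r of -0.58 with Egr4 and -0.48 with Egr1 over the 32 arrays, but 0.17 with Egr3 and 0.03 with Nptx2. Wild-type vehicle replicate 4 had the highest Fkbp5 of its group, and R6/2 vehicle replicate 7 the highest of its own (9.13). The cortical markers had r of 0.62 with Nr4a3, 0.44 with the mean of the 10 genes and -0.006 with Egr4. R6/2 vehicle replicate 7 had the highest cortical marker mean of its group (8.68), but replicate 4 was close (8.63) with a mean of only 0.08 SD for the 10 genes. Wild-type vehicle replicate 4 also had the highest cortical marker mean of its group (8.30). Their part in the spread was not tested.

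**Figure D4:**
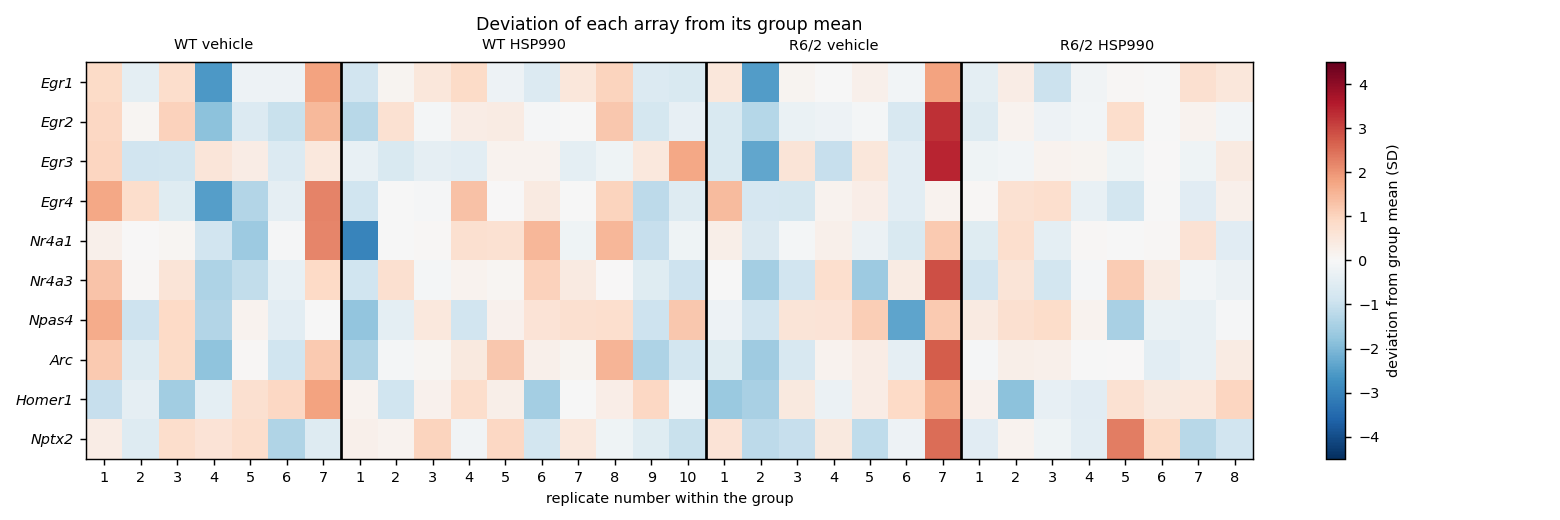
Deviation of each array (columns, by group and replicate number) from its group mean for each gene (rows), in units of the gene's SD within groups, red above and blue below. R6/2 vehicle replicate 7 lies above its group mean for all 10 genes and is the highest of its group for 9 of 10 genes, and wild-type vehicle replicate 4 is the lowest of its group for 6.

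The spread within groups was smaller on HSP990 for most of the 10 genes, and in wild type for most of all genes as well. In R6/2 the SD of all 10 genes was smaller on HSP990 than on vehicle, as it was for 51.2% of all genes, and the median SD ratio was 0.502 beside 0.987 over all genes. Egr3 had an SD of 0.44 on vehicle and 0.05 on HSP990, Arc 0.59 and 0.12, and Egr2 1.02 and 0.27. Leaving out vehicle replicate 7, it was smaller for 8 of 10 (46.0% of all genes), with a median ratio of 0.667 beside 1.05. In wild type it was smaller for 9 of 10 (69.8% of all genes), and the ratio of 0.735 was near the 0.804 of all genes. Nr4a1 was the exception, with an SD of 0.55 on vehicle and 0.62 on HSP990. Without vehicle replicate 4 it was smaller for 8 of 10 genes (64.6% of all genes, ratio 0.790 beside 0.844). No test of the spread was made.

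The genes most like the 10 were sought by r with group means removed over 32 arrays. The mean of the 10 was followed most closely by Dusp6, a phosphatase that turns off ERK, with r = 0.81, or 0.72 without R6/2 vehicle replicate 7. Next came Nrp1 (0.69), Chrd (0.69), Parp1 (0.68), Srf (0.67) and Epha7 (0.67), and these 5 lay between 0.40 and 0.47 without that array. For the r values without that array, the group mean removed still included it, which can raise them. Dusp6 was among the closest genes to Egr1 (0.67), Egr2 (0.80), Nr4a1 (0.64) and Arc (0.76). It fell with HSP990 in wild type (-0.63, adjusted p = 0.0393) and in R6/2 (-0.74, adjusted p = 0.0314), and its values between genotypes, -0.22 and -0.33, did not pass. The call in wild type was lost without any one of 8 arrays (adjusted p up to 0.112, without wild-type vehicle replicate 7) and that in R6/2 without any one of 7 (up to 0.102, without R6/2 vehicle replicate 7).

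By single gene, Nr4a1 was closest to Fos (0.79), Egr3 to Dock4 (0.85) and Dgkh (0.80), and Homer1 to Prkcb (0.90) and Kcnq3 (0.90). Nptx2 was closest to Kctd6 (0.85) and Plch2 (0.85), Nr4a3 to Ntng1 (0.79) and Sstr4 (0.76), and Npas4 to Malat1 (0.62) and Mex3b (0.57). For Egr4 they were Slc8b1 (0.60) and Acrbp (0.57), for Egr1 also Ago4 (0.68), for Egr2 Parp1 (0.73) and for Arc Spata2l (0.68).

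Of 40 other activity-induced genes, 38 were measured, and in R6/2 on vehicle 12 were called lower and 2 higher, with 17 lower and 3 higher under HSP990. Over all genes 21.5% were called in either direction on vehicle and 33.6% under HSP990. The medians of the list were -0.12 and -0.13, nearer to 0 than those of the 10 genes. Inhba, an activin subunit, had the smallest p of the list, with -1.36 ± 0.15 on vehicle and -1.55 ± 0.14 under HSP990 (adjusted p = 9.6e-08 and 2.27e-10). In the same order, the phosphatase gene Dusp1 (-0.55 and -0.63), Ier5 (-0.65 and -0.81), the clock gene Per1 (-0.77 and -0.69) and the G protein regulator Rgs2 (-0.57 and -0.86) fell. Plk2, a kinase that acts in synaptic scaling, fell too (-0.42 and -0.99). Nfil3 rose on both treatments (0.62 and 0.41), Rheb rose on vehicle (0.35), and Klf6 and Errfi1 rose under HSP990 (0.39 and 0.36). The calls of Rheb, Klf6 and Errfi1 were lost without any one of 11, 13 and 13 of the 32 arrays. With the mean of probe sets Klf6 (0.14, limma adjusted p = 0.472) and Errfi1 (0.11, 0.652) were not called.

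The same list split in direction under HSP990. In wild type Ccn1 (0.66), Gadd45b (0.32) and Atf3 (0.27) rose and Per1 (-0.67), Csrnp1 (-0.42) and Trib1 (-0.37) fell. In R6/2 Gadd45b (0.49), Vgf (0.49) and Atf3 (0.35) rose and Plk2 (-0.78), Per1 (-0.60) and Rgs2 (-0.49) fell. These were 6 of 38 in each genotype, where 5.80% of all genes were called in wild type and 3.09% in R6/2. The calls of Atf3 were lost without any one of 15 arrays in wild type, and in R6/2 without vehicle replicate 3 or HSP990 replicate 3, that of Vgf without any one of 11, and that of Trib1 without wild-type vehicle replicate 3. With the mean of probe sets the calls of Gadd45b in wild type (limma adjusted p = 0.0813) and Rgs2 in R6/2 (0.0888) were lost. A fit with a term for the replicate number lost the wild-type calls of Gadd45b (0.052), Trib1 (0.0911) and Atf3 (0.175). Atf3 and Gadd45b are stress-responsive as well as activity-induced. The medians were -0.08 in wild type and -0.18 in R6/2. No interaction was called by limma, with 3 genes at an unadjusted p under 0.05, where 12.9% of all genes passed. Called interactions numbered 2 without R6/2 vehicle replicate 1 and 1 each without R6/2 vehicle replicate 6 or wild-type vehicle replicate 7.

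Upstream of the 10 genes, 26 of 30 listed kinases and factors were measured. In R6/2 8 were called lower and 3 higher on vehicle, and 9 lower and 4 higher under HSP990, beside the 21.5% and 33.6% of all genes called in either direction, with medians of -0.04 and -0.20. Camk4, a calcium-calmodulin kinase that phosphorylates CREB, fell (-1.28 ± 0.18 and -1.14 ± 0.16, adjusted p = 3.85e-06 and 1.14e-06), as did its activator Camkk2 (-1.17 and -0.92). Lower too on both treatments were Srf (-0.56 and -0.47), the CREB coactivator Crtc1 (-0.51 and -0.62), the calcineurin subunit Ppp3ca (-0.53 and -0.71) and the CREB kinase gene Rps6ka5 (-0.74 and -0.62). With the mean of its probe sets Crtc1 was not called (-0.31 and -0.25). Creb1 itself rose (0.45 and 0.32), and so did the coactivator Ep300 (0.26 and 0.59). The other calls upward were the coactivator Crebbp on vehicle (0.34) and the protein kinase A subunits Prkaca (0.25) and Prkacb (0.22) under HSP990. Ep300 on vehicle lost its call without R6/2 vehicle replicate 1, 3 or 6 or wild-type vehicle replicate 3, 6 or 7, Crebbp without R6/2 vehicle replicate 1 or wild-type vehicle replicate 5, and Prkacb without any one of 11 arrays. Averaging probe sets turned the value of Prkacb to -0.15 and left Prkaca at 0.11, not called (limma adjusted p = 0.393). With HSP990 in wild type Camkk2 (-0.50), Srf (-0.28), Prkaca (-0.26) and Mrtfa (-0.44) fell, where 5.80% of all genes were called in either direction. The call of Mrtfa was lost without any one of 24 of the 32 arrays, that of Srf without any one of 13 and that of Prkaca without any one of 12. With the mean of probe sets Srf (-0.15, limma adjusted p = 0.174) and Prkaca (-0.10, 0.613) were not called. In R6/2 none was called, where 3.09% of all genes were, and 4 had an unadjusted p under 0.05, where 15.8% of all genes did. The count of 4 in wild type went to 1 or 2 without any single one of 12 wild-type arrays (HSP990 replicates 3, 4, 5, 6, 8, 9 and 10 and vehicle replicates 1, 2, 3, 6 and 7) and to 0 with the replicate block, a term for the replicate number.

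Partners of the 10 genes' proteins were measured for 25 of 29 listed genes. In R6/2 8 fell on vehicle and 11 under HSP990 and none rose, where 9.60% and 11.0% of all genes were called lower, with medians of -0.14 and -0.17. Shank3, a scaffold that binds HOMER1, fell (-1.38 ± 0.17 and -1.53 ± 0.15, adjusted p = 5.91e-07 and 3.29e-09), and so did Grm5 (-0.50 and -0.85), the glutamate receptor that HOMER1 tethers. The EGR corepressor Nab2, itself a target of the EGR factors, fell (-0.65 and -1.14), as did the NR4A partner Rxrg (-0.91 and -1.15). The AMPA receptor subunit Gria3 fell on both treatments (-0.40 and -0.61). With HSP990 none was called in either genotype by limma. At an unadjusted p under 0.05 there were 0 in wild type and 10 in R6/2, where 18.5% and 15.8% of all genes passed. No interaction was called, with 3 at an unadjusted p under 0.05, where 12.9% of all genes passed. In R6/2 2 were called without vehicle replicate 1 and 1 without HSP990 replicate 5.

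**Figure D5:**
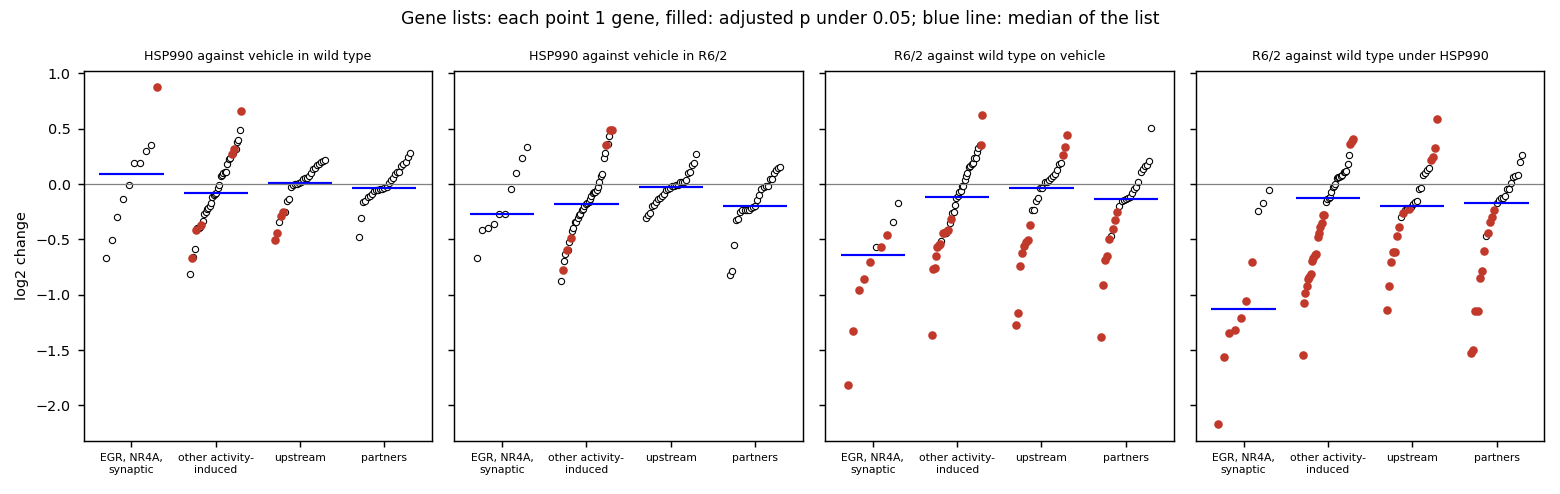
Log2 change (vertical axis) of each gene of the 4 lists (horizontal axis: the 10 genes, other activity-induced genes, upstream kinases and factors, and partners), 1 panel a comparison, filled where the adjusted p is under 0.05, with the list median as a blue line. In the genotype panels the median of the 10 genes, -0.64 on vehicle and -1.13 under HSP990, lies below those of the other lists, which run from -0.04 to -0.20.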

How the data were processed

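Striatal total RNA was converted to biotin-labelled cRNA by a 3' in vitro transcription kit, per the labels' protocols. The authors' deposited values are log2 expression, by their range of 2.15 to 14.7. How they were normalized was not given in the sources used here. Of 45101 probe sets, 64 were controls, 34945 had 1 gene symbol, 932 several and 9160 none. A gene was represented by whichever of its single-gene probe sets had the highest mean over all arrays (9010 genes had more than 1).

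Group means of the 4 groups were fitted with limma 3.58.1 in R 4.3.3, with data.table (version 1.17.8), for 5 comparisons and 2 that cross genotype and treatment. Errors after ± are SE of the fit and intervals are 95%. The 32 arrays' number limits the precision. Probe sets were also fitted singly. On simulated data the fit recovered 22% of changes of 0.25 log2 units with HSP990 in wild type and 82% of those of 0.5. For the interaction it recovered 10% and 58%, so changes of these sizes can go uncalled. These shares are over all 18193 genes, and recovery was not worked out for the 10 genes alone. Their SE with HSP990 in wild type ran from 0.10 (Homer1) to 0.31 (Egr2), and genes with a larger SE are recovered less often. Tables and figures used Python 3.11.15, pandas 2.3.3, numpy 2.4.6 and matplotlib 3.10.9.

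The 10 genes and the lists were chosen with earlier results of these data known. Named besides them were, per list and comparison, up to 6 called genes by smallest p, and the genes of highest r (6 to the mean, 2 to each gene, above the median of all probe sets and with no clone name). Jun, Hspa1a and Fkbp5 are checks of the treatment, and cell type markers are named where a result turns on them. Klf6, Errfi1, Rheb, Crebbp and Prkacb are outside this rule and were chosen after their values were seen. The settings varied were quantile normalization, median centring, leaving out dim probe sets, averaging probe sets, all probe sets, only the groups compared, trended and robust variance, array weights, the replicate block, 3' bias as a covariate, removal of arrays with a Gapdh difference over 2, and each array left out in turn. Removal of R6/2 vehicle replicate 7 with wild-type vehicle replicate 4 was added after seeing the data.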

Additional observations from a re-analysis of the deposited data

Results flagged for a closer look

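In 40 combinations of gene and group the array at either end was compared with its nearest neighbour, as a share of the group's range (Dixon's test at 95%), and 2 passed, about as many as chance gives at 1 in 20. Egr2, which was lower in R6/2, was at 6.85 in R6/2 vehicle replicate 7, the highest of 7, with the next array at 4.57 (gap over range 0.738, critical value 0.568). That array was also the highest of its group for 8 of the other genes, and the Egr2 difference between genotypes on vehicle, -1.81 with it, was -2.39 without it and wild-type vehicle replicate 4. Egr3 was at 11.86 in wild-type HSP990 replicate 10, the highest of 10, with the next at 11.55 (0.524, critical value 0.466). Replicate 10 was the lowest of its group for Nr4a3 and Nptx2.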

How the results depend on the processing

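Counts of called genes among the 10 were 7 in both genotype comparisons and stayed at 5 to 8 on vehicle and 6 to 7 under HSP990 over the other settings, and at 6 to 8 and 7 with each array left out. With HSP990 in R6/2 and for the interaction the count was 0 under every setting run. With HSP990 in wild type the count of 1 was 2 with the mean of probe sets, 4 with array weights, 3 without R6/2 vehicle replicate 7 and wild-type vehicle replicate 4, and 1 to 2 with 1 array left out. For the other activity-induced genes the wild-type count of 6 was 3 with the replicate block, and the interaction count of 0 was 1 with array weights and 0 to 2 with 1 array left out. The 4 upstream genes called with HSP990 in wild type were 0 with the replicate block, 2 with 3' bias as a covariate and 1 to 5 with 1 array left out. For partners, the count of 0 with HSP990 was 1 in wild type with the mean of probe sets, and in R6/2 it was 1 with the mean of probe sets, 1 with array weights, 1 without the arrays of a Gapdh difference over 2, and 0 to 2 with 1 array left out. Of 803 values of the 10 genes over 7 comparisons under these settings, 783 kept their side of the threshold and direction, 2 lost and 18 gained the call, and of 2240 with 1 array left out 2219 kept them, 8 lost and 13 gained the call; none changed sign while called. For the other genes named with a test, 772 of 838 values kept both, 64 lost and 1 gained the call, and 1 turned (Prkacb between genotypes under HSP990, -0.15 with the mean of probe sets, 0.22 as reported); with 1 array left out 2091 of 2240 kept them and 149 lost the call. The labels do not say that replicate numbers pair mice, and same-numbered arrays did not deviate together (29 pairs, r from -0.22 to 0.38, 13 over 0.1, own number best for 7), so the block was not used; among the 10 it changed 1 call, Arc between genotypes on vehicle (-0.57, adjusted p = 0.0492). Dim probe sets, such as those of Egr2 in R6/2, limit how large a fall can be measured.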
